A study of Mus musculus with 12 samples.

Results

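The receptor subunits for fast and slow synaptic transmission that the array names were examined in spinal cord after spinal cord injury (SCI). The members were the genes whose symbol puts them among the subunits of the AMPA, kainate, NMDA and metabotropic glutamate (mGlu) receptors, the GABA-A and GABA-B receptors, the glycine receptor and the nicotinic and muscarinic acetylcholine receptors. This rule gave 59 of the 18194 genes with a probe of their own, each read from the probe with the highest mean over the 12 arrays. Genes of these families without such a probe were not analysed here.

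There were 4 groups of 3 female C57BL/6 mice. Aged injured and young injured mice were 15 to 18 and 2 to 3 months old, and their cords were collected 9 days after a contusion at the Th9 level. Aged intact and young intact mice were naive mice of the same age ranges, with no sham operation stated. All mice were perfused with heparinized saline, and RNA of 1 Th9 segment per mouse went on 1 array (GeneChip Mouse Genome 430 2.0). The signals are linear MAS 5.0 intensities, scaled by the authors to a trimmed mean of 100 on every array, and the median signal of an array was 20.4 to 23.9. The study used a signal of 50 as its lower cutoff. Signals of different probes have no common scale and are not set against each other. Sums or differences over probes serve only to compare arrays. Neurons are only some of the cells of a segment, and in bulk tissue fewer cells of a type and less RNA per cell cannot be told apart.

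Excitatory transmission in the cord runs mainly through glutamate, which opens AMPA, kainate and NMDA channels within milliseconds and acts more slowly through the G protein-coupled mGlu receptors. Inhibition uses both GABA and glycine, and many spinal interneurons release the pair of them, so that chloride channels of the GABA-A and glycine families stand side by side at spinal synapses. Acetylcholine from motor neuron collaterals and local interneurons acts through nicotinic channels and muscarinic receptors.

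Of the 59 genes, 25 had a mean above 50 in some group, and 21 of these had one over all 12 arrays. All 4 AMPA subunits passed, as did 7 of 14 GABA-A subunits, 4 of 5 glycine subunits, 4 of 6 mGlu receptors, 2 of 5 kainate subunits, 2 of 6 NMDA subunits, the GABA-B subunit Gabbr1, and Chrna7 alone of 15 nicotinic subunits. None of 3 muscarinic receptors passed. Closest to the threshold lay Grik2, with group means of 52.9 in aged intact and 56.7 in young intact cords, and Grm4, with 59.8 in aged intact and 57.3 in young intact cords. Just outside it lay Grik1, with 49.0 in aged intact and 49.1 in young intact cords.

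After SCI the receptor subunits were lower as a body. In aged mice all 25 were called lower in injured than in intact cord (limma across all 10511 genes with a group mean above 50, Benjamini-Hochberg adjusted p under 0.05), where 39.9% of all genes tested were called lower. In young mice 20 of 25 were called lower, against 34.1% of all genes. The median log2 fold change of the 25 was -2.20 in aged and -1.62 in young mice, while the median of all genes was -0.04 in aged and -0.005 in young mice. A gene could pass the cutoff through any group, and 11 of the 25 in aged and 7 in young mice had an injured mean under 50, so their counts and medians describe the genes that passed. Over all 59, in a fit without the cutoff, 36 were called lower in aged mice (26.9% of 18194 genes) and 23 in young mice (21.1%), with medians of -1.28 and -0.76. For 24 of the 25 every injured array lay below every intact array, an order found for 32.6% of all genes tested. Within each age the injured and intact arrays did not overlap for 25 of 25 in aged mice (41.6% of all genes) and 24 in young mice (38.7%). By the study's cutoffs, a ratio of means above 2 and a signal above 50, 22 were lower in aged mice (15.5% of all genes) and 17 in young mice (10.5%). No receptor subunit was called higher in either comparison, where 35.6% of all genes were called higher in aged and 33.9% in young mice. A fold below is the ratio of the group means. It is a lower bound, with the injured mean set to 50, where that mean lies under 50, and the fitted log2 value of such a gene is then no measure of the fold.

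**Figure D1:**
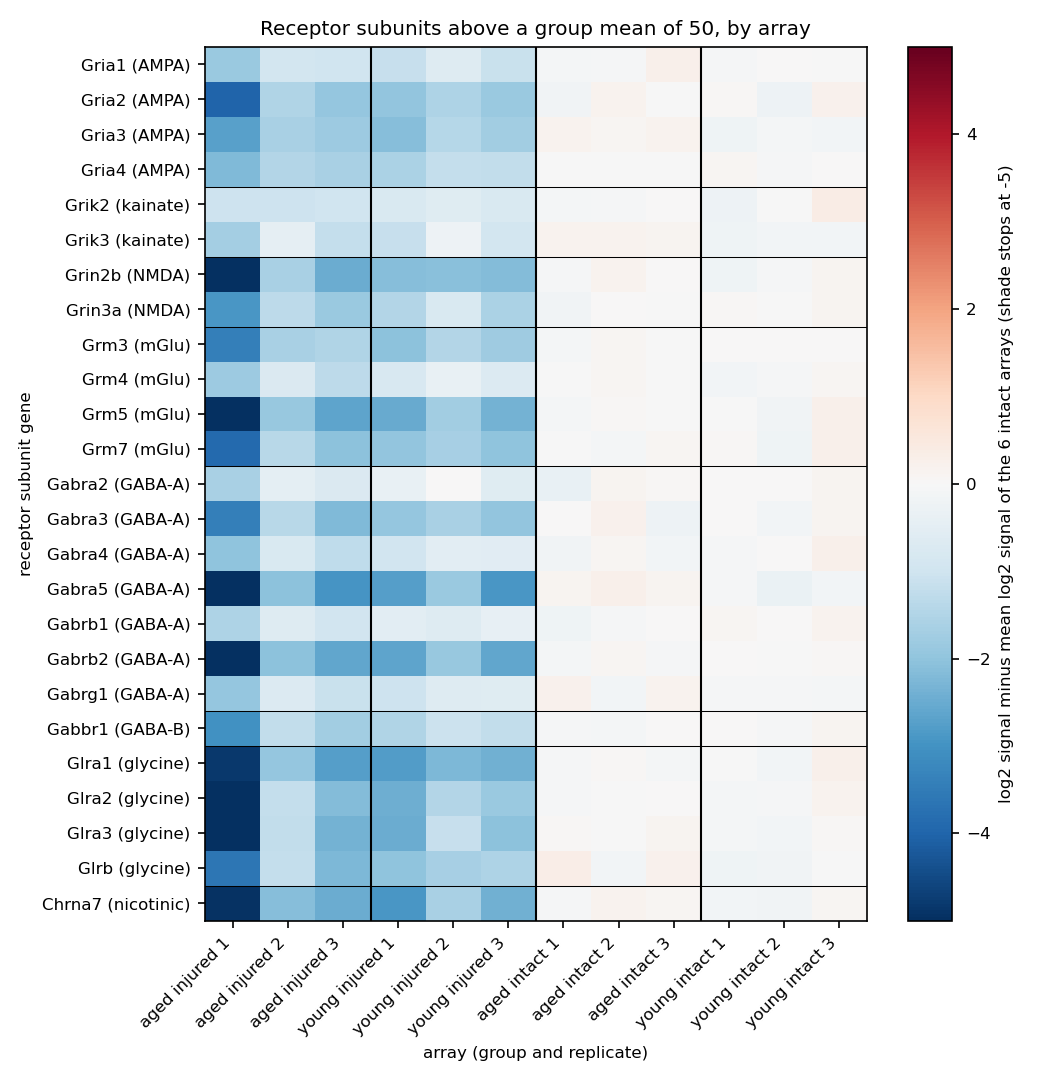
Log2 signal of each of the 25 receptor subunit genes with a group mean above 50, minus its mean over the 6 intact arrays, on each of the 12 arrays (columns, by group and replicate) with genes ordered by receptor family. The 6 injured columns are blue except for Gabra2 on young injured replicate 2, and the darkest column is aged injured replicate 1.

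The AMPA channels carry most fast excitation, and all 4 subunits fell in both ages. Gria2, whose RNA-edited form keeps calcium out of the channel, had signals of 44.5, 253 and 188 on the aged injured and 182, 251 and 202 on the young injured arrays, against 645, 818 and 702 on the aged intact and 743, 605 and 839.6 on the young intact arrays. Every injured array lay far below the lowest intact one. Gria2 was 4.45-fold lower in aged mice after SCI (log2 -2.48 ± 0.49, SE, adjusted p = 0.000806) and 3.45-fold lower in young mice (-1.79 ± 0.49, adjusted p = 0.00773). Gria3, a partner of the Gria2 product in many AMPA receptors, had signals of 78.2, 168 and 145 in aged injured cords and 118, 194 and 153 in young injured cords, against 581, 551 and 576 in aged intact and 443, 484 and 472 in young intact cords. Its decrease was 4.37-fold in aged (adjusted p = 1.67e-05) and 3.01-fold in young mice (adjusted p = 0.000203), with no overlap of injured and intact arrays.

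Gria4, a subunit with fast kinetics, had signals of 65.3, 109.8 and 98.9 on the aged injured and 100.1, 133 and 129 on the young injured arrays, against 299, 299 and 300.0 on the aged intact and 326, 288 and 307 on the young intact arrays. The 3 aged intact arrays were nearly equal, and Gria4 had the smallest adjusted p of the 25 in both ages, at 3.28-fold lower in aged (adjusted p = 6.45e-06) and 2.54-fold lower in young mice (adjusted p = 5.71e-05). A further Gria4 probe gave a larger change, at least 6.50-fold lower in aged and 5.60-fold lower in young mice. Gria1, the subunit whose insertion into synapses is studied in plasticity, had signals of 73.7, 142 and 136 in aged injured cords and 119, 173 and 124 in young injured cords, against 247, 255 and 320.3 in aged intact and 255, 271 and 266 in young intact cords. It fell least of the AMPA subunits, by 2.34-fold in aged (adjusted p = 0.000447) and 1.90-fold in young mice (adjusted p = 0.00395).

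Kainate receptors modulate transmitter release and slow excitation. Grik2, a pore-forming subunit, had signals of 26.8, 26.4 and 27.1 on the aged injured and 32.0, 36.1 and 32.3 on the young injured arrays, against 51.3, 52.1 and 55.2 on the aged intact and 45.9, 54.1 and 70.2 on the young intact arrays. The 3 aged injured arrays lay closer together than in any other of the 25, and below all 3 young injured ones. Both injured means lay under 50, so the decrease was at least 1.06-fold in aged (adjusted p = 0.000185) and at least 1.13-fold in young mice (adjusted p = 0.00165). Grik3, a low-affinity subunit, had signals of 24.7, 58.8 and 34.7 in aged injured cords and 35.8, 66.0 and 42.1 in young injured cords, against 91.0, 89.7 and 87.5 in aged intact and 68.0, 72.5 and 72.1 in young intact cords. Injured and intact arrays of either age did not overlap, and it was called lower in aged mice (at least 1.79-fold, adjusted p = 0.00184) while the young comparison did not pass (at least 1.42-fold lower, adjusted p = 0.0775).

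NMDA receptors need glutamate together with glycine or serine, and admit calcium. Grin3a, a glycine-binding subunit that lowers calcium entry, had signals of 19.0, 57.8 and 39.7 on the aged injured and 51.5, 84.2 and 47.8 on the young injured arrays, against 127, 148 and 140.0 on the aged intact and 151, 141 and 158 on the young intact arrays. Its decrease was at least 2.77-fold in aged (adjusted p = 0.000296) and 2.45-fold in young mice (adjusted p = 0.0047). Grin2b, a glutamate-binding subunit, had signals of 0.3, 25.1 and 13.7 in aged injured cords and 17.4, 18.0 and 16.8 in young injured cords, against 73.6, 86.0 and 76.4 in aged intact and 66.5, 73.8 and 83.5 in young intact cords. All 6 injured arrays lay under 50 and 1 of them, aged injured replicate 1, was listed at 0.3, far below the others. The decrease was at least 1.57-fold in aged (adjusted p = 0.0105), and the young comparison, at least 1.49-fold lower with no overlap, did not pass (adjusted p = 0.149).

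All 4 mGlu receptors that passed the cutoff fell in both ages. Grm5, which couples to phospholipase C and calcium release, had signals of 7.7, 93.6 and 56.4 on the aged injured and 61.0, 107 and 68.1 on the young injured arrays, against 326, 367 and 344 on the aged intact and 348, 314 and 423 on the young intact arrays. It was 6.57-fold lower in aged (log2 -3.33 ± 0.69, SE, adjusted p = 0.00112) and 4.60-fold lower in young mice (-2.23 ± 0.69, adjusted p = 0.0142). Grm7, a presynaptic receptor that damps transmitter release, had signals of 19.8, 110.0 and 69.5 in aged injured cords and 74.5, 92.0 and 72.2 in young injured cords, against 287, 269.6 and 307 in aged intact and 301, 248 and 343 in young intact cords. The decrease was 4.34-fold in aged (adjusted p = 0.00065) and 3.73-fold in young mice (adjusted p = 0.00414), again with no overlap.

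Grm3, an inhibitory receptor of neurons and astrocytes, had signals of 27.1, 94.5 and 102 on the aged injured and 70.6, 106 and 84.5 on the young injured arrays, against 276, 310.1 and 285 on the aged intact and 295, 292 and 291 on the young intact arrays. It fell 3.89-fold in aged (adjusted p = 0.000454) and 3.36-fold in young mice (adjusted p = 0.00236). Grm4, a presynaptic receptor like Grm7, had signals of 16.6, 35.7 and 23.9 in aged injured cords and 33.5, 45.6 and 36.0 in young injured cords, against 58.0, 63.1 and 58.4 in aged intact and 52.8, 56.6 and 62.6 in young intact cords. Every injured mean was under 50, and the decrease was at least 1.20-fold in aged (adjusted p = 0.000477) and at least 1.15-fold in young mice (adjusted p = 0.0467).

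The glycine receptor is the main inhibitory channel of brainstem and cord, and its subunits held the largest fold with both means above 50. Glra1, the adult channel subunit that is mutated in inherited startle disease, had signals of 23.3, 171 and 96.8 on the aged injured and 93.9, 137 and 123 on the young injured arrays, against 625, 679 and 615 on the aged intact and 656, 601 and 794 on the young intact arrays. Injured and intact arrays were far apart, and aged injured replicate 1 was the lowest. Glra1 was 6.58-fold lower in aged (log2 -3.13 ± 0.54, SE, adjusted p = 0.000307) and 5.79-fold lower in young mice (-2.54 ± 0.54, adjusted p = 0.00167), the largest ratio in either age among those with both means above 50, with Grm5 close to it in aged mice. Glrb, which ties the receptor to the scaffold gephyrin, had signals of 142, 759 and 367 in aged injured cords and 422, 540.3 and 589 in young injured cords, against 2175, 1563 and 2017 in aged intact and 1470.0, 1540.4 and 1697 in young intact cords. Aged injured replicates 1 and 2 were far apart, yet both lay below every intact array, and the decrease was 4.54-fold in aged (adjusted p = 0.000428) and 3.03-fold in young mice (adjusted p = 0.00794).

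Glra3, an alpha subunit of the dorsal horn, had signals of 5.5, 85.9 and 39.3 on the aged injured and 36.1, 89.8 and 48.7 on the young injured arrays, against 207, 196 and 223 on the aged intact and 189, 183 and 208 on the young intact arrays. It was called lower in aged mice (at least 4.18-fold, adjusted p = 0.00404), and the young comparison lay at the threshold (3.32-fold lower, adjusted p = 0.0501). Glra2, the alpha subunit of the embryonic receptor, had signals of 0.5, 33.3 and 17.2 in aged injured cords and 13.9, 27.9 and 20.8 in young injured cords, against 73.3, 76.0 and 76.6 in aged intact and 71.5, 74.0 and 87.2 in young intact cords. It was called lower in aged mice (at least 1.51-fold, adjusted p = 0.0171) and not in young mice (at least 1.55-fold lower, adjusted p = 0.158), with both injured means under 50 and no overlap in either age.

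**Figure D2:**
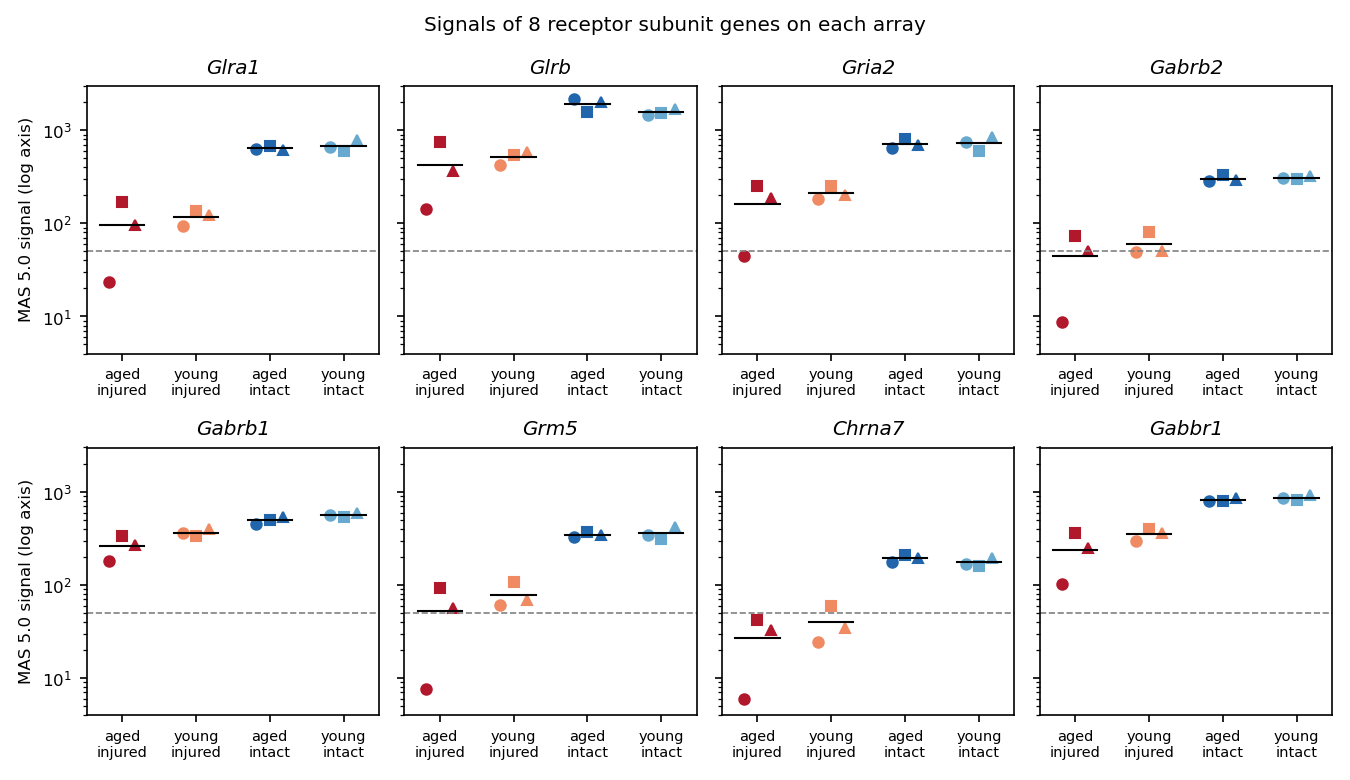
MAS 5.0 signal (log axis) of 8 receptor subunit genes on each array, where circles are replicate 1, squares replicate 2 and triangles replicate 3, a bar at the group mean and a dashed line at 50. In each panel all 6 injured arrays lie below the 6 intact ones and the aged injured circle is the lowest point.

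The GABA-A subunits formed a less and a more reduced set. Gabrb1, Gabra2, Gabra4 and Gabrg1 are neighbours on chromosome 5 (GRCm38.p6, bases 70751047 to 72149572, a span of 1398526 bases), where Gabra4 on the minus strand and Gabrb1 on the plus strand start head to head and overlap by 388 bases. In aged mice they were 1.76-fold to 2.37-fold lower, with Gabra4 at least 1.93-fold lower, and in young mice 1.29-fold to 1.69-fold lower. Of the other 3, Gabra3 on chromosome X was 4.33-fold lower, Gabra5 on chromosome 7 at least 5.05-fold lower and Gabrb2 on chromosome 11 at least 6.05-fold lower in aged mice. In young mice Gabra3 was 3.62-fold, Gabra5 at least 3.97-fold and Gabrb2 5.13-fold lower. This split was noticed after the values were seen and was not tested.

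The windows around the annotated starts of the 4 neighbours and of Gabrb2, from 250 bases before the start to 50 after it, are shown so that the starts of the cluster can be set beside that of a beta subunit from another chromosome (RefSeq, GRCm38.p6, 5′ to 3′ on the gene's own strand). Capitals mark GGGCGG or CCGCCC, the GC box on either strand, and TATAAA or TTTATA, the TATA box on either strand. Gabra4 lies at chr5:71658259-71658558 (minus strand), Gabrb1 at chr5:71657671-71657970 (plus), Gabra2 at chr5:71095800-71096099 (minus), Gabrg1 at chr5:70842568-70842867 (minus) and Gabrb2 at chr11:42420190-42420489 (plus).
Gabra4: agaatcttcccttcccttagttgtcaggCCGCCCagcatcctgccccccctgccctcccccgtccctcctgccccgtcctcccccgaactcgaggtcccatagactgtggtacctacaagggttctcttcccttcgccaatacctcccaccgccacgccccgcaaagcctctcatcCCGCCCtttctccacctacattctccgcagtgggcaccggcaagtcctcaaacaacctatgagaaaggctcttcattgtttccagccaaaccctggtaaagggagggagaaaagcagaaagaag
Gabrb1: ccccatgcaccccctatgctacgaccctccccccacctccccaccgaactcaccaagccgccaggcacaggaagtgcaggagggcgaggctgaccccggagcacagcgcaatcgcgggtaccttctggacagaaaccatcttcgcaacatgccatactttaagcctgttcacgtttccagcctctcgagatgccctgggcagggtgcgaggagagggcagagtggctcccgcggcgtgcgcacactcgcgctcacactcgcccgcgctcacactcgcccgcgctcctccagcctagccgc
Gabra2: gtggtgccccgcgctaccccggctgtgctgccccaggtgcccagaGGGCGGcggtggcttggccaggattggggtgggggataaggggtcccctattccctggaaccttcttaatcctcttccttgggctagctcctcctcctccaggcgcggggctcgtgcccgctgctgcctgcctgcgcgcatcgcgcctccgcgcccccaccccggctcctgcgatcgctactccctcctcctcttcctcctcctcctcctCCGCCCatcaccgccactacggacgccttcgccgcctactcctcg
Gabrg1: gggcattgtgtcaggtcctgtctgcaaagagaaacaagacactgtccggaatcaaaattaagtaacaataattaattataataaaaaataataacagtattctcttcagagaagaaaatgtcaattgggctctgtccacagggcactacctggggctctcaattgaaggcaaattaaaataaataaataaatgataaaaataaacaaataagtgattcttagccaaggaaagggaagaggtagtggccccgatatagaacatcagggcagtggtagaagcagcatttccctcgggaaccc
Gabrb2: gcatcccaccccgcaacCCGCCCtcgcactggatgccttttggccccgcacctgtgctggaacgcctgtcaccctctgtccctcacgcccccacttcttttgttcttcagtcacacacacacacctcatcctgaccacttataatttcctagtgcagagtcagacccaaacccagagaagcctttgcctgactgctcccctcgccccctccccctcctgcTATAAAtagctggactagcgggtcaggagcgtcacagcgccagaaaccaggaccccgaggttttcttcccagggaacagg

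Gabra4 and Gabra2 each had 2 GC boxes, Gabrb2 had 1 GC box and 1 TATA box, and neither motif was in the windows of Gabrb1 and Gabrg1. This covers the first window listed per gene. Gabrb2 had 3 windows and Gabrb1 had 2, and their other windows were not examined. Of the 25 receptor subunit genes above the cutoff, 18 had a window, and the GC box was in 61.1% of those 18 against 35.9% of 27025 genes with a window. The TATA box was in 16.7% of the 18, against 14.2% of all. Windows of chromosome 18 were left out of the 27025. The median window was 62.3% G or C among the 18 receptor genes and 52.7% among all. A motif made of G and C is likelier in such windows, and a surplus beyond base composition was not tested. The windows of Gabra2 and Gabrb1 were 70.0% and 66.0% G or C, and that of Gabrg1 38.3%, so the 4 neighbours did not share a base composition.

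Gabrb1, a beta subunit that helps form the GABA site, had signals of 182, 335 and 272 on the aged injured and 365, 336 and 396 on the young injured arrays, against 449.8, 501 and 534 on the aged intact and 563, 535 and 587 on the young intact arrays. Its decrease was 1.88-fold in aged (log2 -0.95 ± 0.18, SE, adjusted p = 0.000527) and 1.54-fold in young mice (-0.62 ± 0.18, adjusted p = 0.00916). Its other probes above the cutoff gave 2.03-fold and 2.24-fold in aged and 1.53-fold and 1.57-fold in young mice. Gabrb2, the beta subunit of the most common brain receptor, had signals of 8.7, 73.6 and 50.6 in aged injured cords and 48.8, 81.6 and 51.0 in young injured cords, against 287, 328 and 292 in aged intact and 311, 301 and 319.9 in young intact cords. It was at least 6.05-fold lower in aged (adjusted p = 0.000505) and 5.13-fold lower in young mice (adjusted p = 0.00452). Within each array, with Gabrb2 set to 50 where it was lower, the log2 difference Gabrb1 minus Gabrb2 was at least 1.86, 2.19 and 2.43 in aged injured and at least 2.87, 2.04 and 2.96 in young injured cords, against 0.61 to 0.87 in aged intact and 0.83 to 0.88 in young intact cords. These beta subunits were thus unequally reduced on every injured array.

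Gabra5, an alpha subunit of receptors outside the synapse that carry tonic inhibition, had signals of 4.2, 53.6 and 29.3 on the aged injured and 32.8, 62.0 and 30.1 on the young injured arrays, against 246, 264 and 248 on the aged intact and 213, 178 and 206 on the young intact arrays. Both injured means lay under 50, and the decrease was at least 5.05-fold in aged (adjusted p = 0.000584) and at least 3.97-fold in young mice (adjusted p = 0.0129). Gabra3, a synaptic alpha subunit, had signals of 36.9, 151 and 84.5 in aged injured cords and 102, 129 and 100.4 in young injured cords, against 398, 454 and 327 in aged intact and 402, 358 and 437 in young intact cords. It fell 4.33-fold in aged (adjusted p = 0.000231) and 3.62-fold in young mice (adjusted p = 0.00139), with injured and intact arrays far apart.

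Gabra2, an alpha subunit linked to antihyperalgesic effects of benzodiazepines in rodent cord, had signals of 59.9, 132 and 112 on the aged injured and 139.9, 185 and 121 on the young injured arrays, against 143, 201 and 189 on the aged intact and 186, 184 and 203 on the young intact arrays. It was the only one of the 25 whose injured and intact arrays overlapped over the 12 arrays, through young injured replicate 2. Gabra2 was called lower in aged mice (1.76-fold, adjusted p = 0.01) and not in young mice (1.29-fold lower, adjusted p = 0.212). A second Gabra2 probe gave 3.09-fold lower in aged and 2.60-fold lower in young mice, so the place of Gabra2 in the less reduced set depends on the probe.

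Gabra4, an alpha subunit of receptors outside the synapse in forebrain, had signals of 25.3, 60.1 and 42.0 in aged injured cords and 52.4, 69.6 and 67.6 in young injured cords, against 90.5, 107 and 91.8 in aged intact and 97.6, 103 and 120.2 in young intact cords. The decrease was at least 1.93-fold in aged (adjusted p = 0.000911) and 1.69-fold in young mice (adjusted p = 0.0206). Gabrg1, a gamma subunit that places receptors at low benzodiazepine affinity, had signals of 95.2, 226 and 168 on the aged injured and 178, 234 and 242 on the young injured arrays, against 420.1, 331 and 410.4 on the aged intact and 349.9, 355 and 338 on the young intact arrays. It fell 2.37-fold in aged (adjusted p = 0.000631) and 1.60-fold in young mice (adjusted p = 0.0317), and its second probe gave 2.65-fold and 1.67-fold.

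Gabbr1, the GABA-binding subunit of the G protein-coupled GABA-B receptor on which baclofen acts, had signals of 102, 362 and 251 on the aged injured and 294, 399.8 and 361 on the young injured arrays, against 798, 790.3 and 853 on the aged intact and 852, 812 and 925 on the young intact arrays. The decrease was 3.41-fold in aged (log2 -1.95 ± 0.34, SE, adjusted p = 0.000373) and 2.46-fold in young mice (-1.31 ± 0.34, adjusted p = 0.00618). Chrna7, which forms a calcium-permeable nicotinic channel from copies of itself, had signals of 5.9, 42.0 and 32.8 in aged injured cords and 24.6, 60.0 and 34.8 in young injured cords, against 177, 208 and 194 in aged intact and 169, 161 and 196 in young intact cords. Both injured means lay under 50, and Chrna7 was at least 3.86-fold lower in aged (adjusted p = 0.000468) and at least 3.50-fold lower in young mice (adjusted p = 0.00654).

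**Figure D3:**
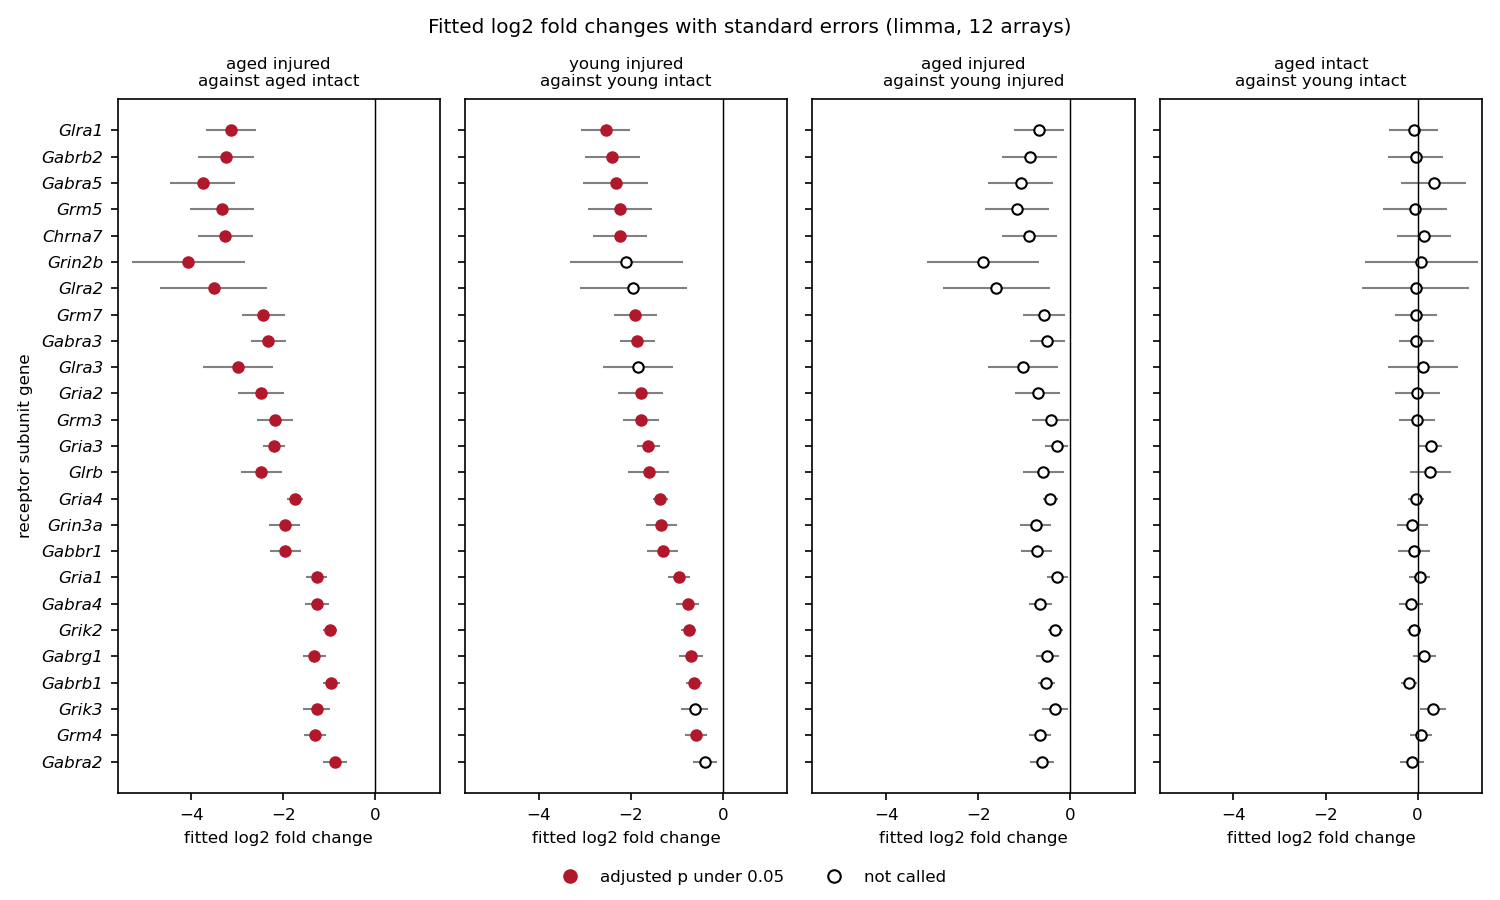
Fitted log2 fold change (x axis, point) with its standard error (line) for each of the 25 genes in 4 comparisons, ordered by the change in young mice. All 25 points of the aged injury panel and 20 of the young one are filled (adjusted p under 0.05), none of the panels on age are, and all 25 points of aged against young injured cord lie left of 0.

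The probes above the cutoff moved the same way. The 25 genes had 48 single-gene probes above the cutoff, the 25 probes already used among them, and 16 of the genes had several. All 48 had a lower mean in injured than in intact cord in both ages. Each thus passed the cutoff through an intact group, so the count describes the probes that passed. Probes under the cutoff did not all go this way, as 1 for Grin2b had means of 5.1 in aged injured and 3.07 in aged intact cords. The calls of some members depended on the setting. In aged mice Grik3 (adjusted p = 0.237) and Grin2b (0.0568) were no longer called on the mean of all probes of a gene, nor Grin2b (0.0584) and Glra2 (0.0749) with the aged arrays alone. In young mice Chrna7 (0.157), Gabrb1 (0.0984) and Grik2 (0.161) were lost on the mean of all probes and Grm4 (0.0629) without the cutoff. All 25 were called lower in young mice with the young arrays alone (36.0% of all genes), or without aged injured replicate 1 (37.3%). Leaving out 1 array ended 3 calls in young mice: Gabra4 without young injured replicate 1 (0.0791) or young intact replicate 3 (0.0697), Gabrg1 without young injured replicate 1 (0.116) or any young intact array (0.0618 to 0.073), and Grm4 without any intact array, aged injured replicate 3, or young injured replicate 1 or 3 (0.0579 to 0.136).

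The 34 receptor subunit genes under 50 in every group were Grik1, Grik4 and Grik5, the NMDA subunits Grin2a, Grin2c, Grin2d and Grin3b, Grm2 and Grm8, the GABA-A subunits Gabra6, Gabrd, Gabre, Gabrg3, Gabrq, Gabrr1 and Gabrr2, Glra4, the muscarinic receptors Chrm1, Chrm3 and Chrm4, and the nicotinic subunits other than Chrna7. Their signals on single arrays ran from 0.2 to 57.5. Chrna4 and Chrnb2, which join in the common nicotinic receptor of brain, had means of 15.5 and 14.8 in aged injured and 22.0 and 16.1 in young injured cords, against 34.7 and 33.8 in aged intact and 37.4 and 36.1 in young intact cords. The muscle subunits Chrna1, Chrnd, Chrne and Chrng had means under 10 in every group. In the fit without the cutoff 11 of the 34 were called lower in aged mice (26.9% of all genes) and 4 in young mice (21.1%), and 2, Chrnb1 and Gabra6, higher in young mice (23.4%). These shares are near or below those of all genes, and no fold is given where both means lie under 50.

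Age was compared next, in injured and in intact cord. Between aged injured and young injured cords no receptor subunit was called (0 of 25, limma), where 4.41% of all genes were called higher and 4.58% lower, and 6 had an unadjusted p under 0.05 (30.1% of all genes). When the injured arrays were fitted alone, limma called 0 of 10511 genes, none of the 25 with an unadjusted p under 0.05. All 25 had a negative log2 fold change, as did 56.1% of all genes, with a median of -0.65 against -0.04 for all genes. These are the signals already given, so Gabrb1 had means of 263 ± 77.1 in aged injured and 365 ± 29.8 in young injured cords (SD, n = 3 each, 1.39-fold lower, adjusted p = 0.0856). Grm4 (means 25.4 and 38.4, adjusted p = 0.0997) and Gabra4 (means 42.5 and 63.2, adjusted p = 0.12) followed by p. Grin2b had the largest fitted difference, with means of 13.0 in aged injured and 17.4 in young injured cords, both under 50. Only Gabrb1 and Grik2 had aged injured arrays all below the young injured ones, an order found for 14.1% of all genes.

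Aged injured replicate 1 stood apart. It had the lowest of the 6 injured signals for 24 of the 25, Grik2 excepted, and for 36.3% of all genes tested, and 17 of its 25 signals were under 50. Its signals had a median of 9.39% of the aged intact mean, while aged injured replicates 2 and 3 had 39.6% and 26.1%, and young injured replicates 1, 2 and 3 had 25.5%, 41.6% and 31.9% of the young intact mean. Without that array the median log2 fold change of aged against young injured cord was 0.008, with 12 of 25 negative and none called. Without aged injured replicate 2, which was above the other aged injured arrays for 23 of the 25, 12 were called lower, where calls rose over all genes too, to 17.5% lower: Gabbr1, Gabra2, Gabra3, Gabra4, Gabra5, Gabrb1, Gabrg1, Glrb, Gria4, Grin3a, Grm4 and Grm5. With arrays weighted by their fit, aged injured replicates 1, 2 and 3 had weights of 0.132, 0.417 and 2.97, so the aged injured values came mostly from replicate 3. Gabra4 (adjusted p = 0.0374), Gabrb1 (0.0141) and Grm4 (0.0356) were then called lower, 3 of 25 where 9.51% of all genes were called lower with these weights. The calls after SCI in aged mice did not rest on aged injured replicate 1, since all 25 were called lower without it (38.5% of all genes). The median was then -1.65, and the fitted value of 12 of the 25 moved by more than 1.5-fold: Chrna7, Gabra5, Gabrb2, Glra1, Glra2, Glra3, Glrb, Gria2, Grin2b, Grm3, Grm5 and Grm7. For Chrna7, Gabra5, Gabrb2, Glra2, Glra3 and Grin2b the aged injured mean lay under 50, so there the move measures the fit and not the fold. Leaving out replicate 2 moved 7 of these by as much (Gabra5, Gabrb2, Glra1, Glra2, Glra3, Grin2b and Grm5), and leaving out replicate 3 moved Glra2 and Grin2b.

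Between aged intact and young intact cords no receptor subunit was called (0 of 25, limma), where 0.542% of all genes were called higher and 0.266% lower, and none had an unadjusted p under 0.05 (10.2% of all genes). The median log2 fold change was -0.03, and 15 of 25 were negative. The median had no stable sign, at 0.02 without aged intact replicate 1 and 0.06 without young intact replicate 3. Means differed by at most 1.27-fold, for Gabra5 with 253 ± 9.78 in aged intact and 199 ± 18.6 in young intact cords (SD, n = 3 each). With the intact arrays alone, whose spread was smaller, Gabra5 (adjusted p = 0.0284) and Gria3 (0.0119) were called higher in aged cord, where 2.63% of all genes were called higher in that fit. Gria3 had means of 569 ± 16.1 in aged intact and 466 ± 21.5 in young intact cords.

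The interaction of age and injury, which asks whether the change after SCI differs between the ages, was called for no receptor subunit, where 0.133% of all genes were called higher and 0.304% lower. None had an unadjusted p under 0.05 (16.2% of all genes). All 25 interaction values were negative, with a median of -0.64, and the median without aged injured replicate 1 was -0.13, with 17 negative. Without aged injured replicate 2 the median was -0.998, with 25 negative. There 13 of the 25 had an unadjusted p under 0.05, and none was called, where 2.69% of all genes were called lower. With array weights the median was -0.28, with 24 negative, 4 with an unadjusted p under 0.05 and none called. In the fit of all 12 arrays Grm4 had the smallest adjusted p, 0.321. A difference between the ages in the response of these genes to SCI was not detectable with 3 arrays a group.

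Markers of neurons moved with the receptor subunits. Chat, the enzyme that makes acetylcholine and a motor neuron marker, had a mean under 10 in every group and was the only one of 16 neuron markers below the cutoff. Of the 15 others, 15 were called lower in aged mice after SCI (median log2 fold change -2.34, and -1.60 without aged injured replicate 1) and 10 in young mice (-1.39), where 39.9% of all genes were called lower in aged and 34.1% in young mice. The summed signal of 16 neuron markers was 2154, 12886 and 8586 on the aged injured and 9088, 14049.6 and 12229 on the young injured arrays, against 26894 to 27576 on the aged intact and 26173 to 27458 on the young intact arrays. The summed signal of the 59 receptor subunits was 1283, 3942 and 2761 on the aged injured and 2967, 4017 and 3501 on the young injured arrays, against 9483 to 9787 on the aged intact and 8685 to 9925 on the young intact arrays. Both sums were lowest on aged injured replicate 1 and put the arrays of each injured group in the same order. Such a sum is weighted to its brightest probes, as Glrb alone gave 2175 of the 9582 on aged intact replicate 1. Markers of microglia and macrophages (10 of 10) and of fibroblasts and meninges (6 of 6) were called higher after SCI in both ages. Over all genes, 35.6% were called higher in aged and 33.9% in young mice. Of 9 astrocyte markers 6 were called lower in aged mice after SCI (median log2 fold change -0.52) and 1 lower and 2 higher in young mice (-0.05). Between aged injured and young injured cords 4 of these 9 were called lower, where 4.58% of all genes were called lower. Of 8 oligodendrocyte markers 5 were called lower in aged mice after SCI (-0.48), and 2 lower and 1 higher in young mice (-0.16). The part of cell makeup in the receptor signals was not tested.

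**Figure D4:**
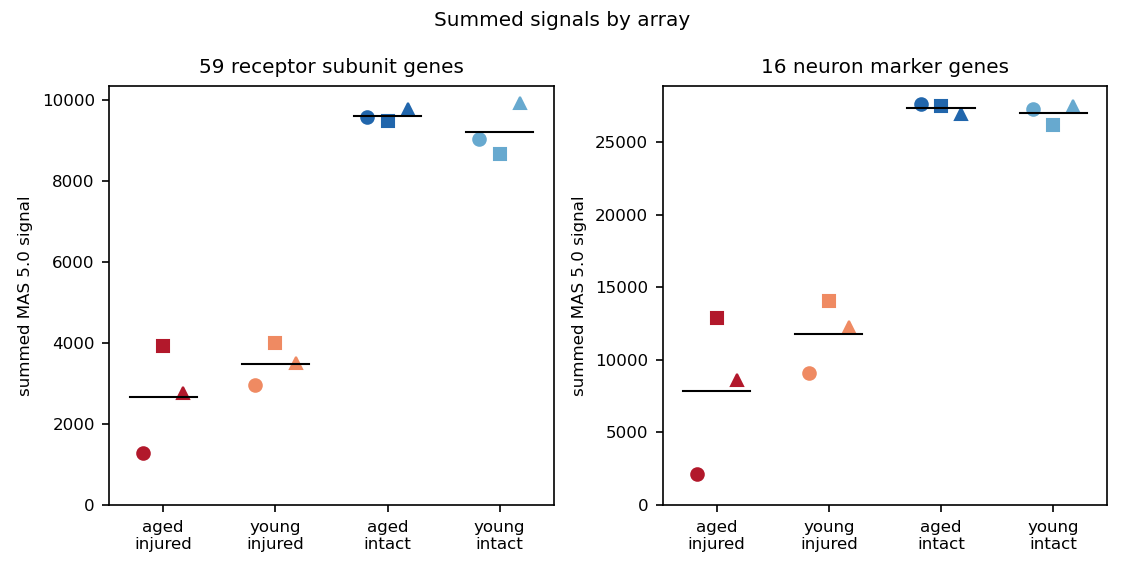
Summed MAS 5.0 signal per array of the 59 receptor subunit genes (left) and of 16 neuron marker genes (right), where circles are replicate 1, squares replicate 2 and triangles replicate 3 and a bar at the group mean. Injured sums lie below all intact sums in both panels, and aged injured replicate 1 is lowest, at 1283 for receptors and 2154 for neuron markers.

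Genes that anchor, traffic or accompany these receptors were mostly lower too. Of 29 scaffold and auxiliary subunit genes tested, 24 were called lower and 2 higher in aged mice after SCI (median log2 fold change -1.23), where 39.9% of all genes were called lower and 35.6% higher. In young mice 23 were called lower and 2 higher (-0.85), where 34.1% of all genes were called lower and 33.9% higher. Nptx1, a secreted pentraxin that clusters AMPA receptors, had means of 67.1 ± 59.6 in aged injured and 116 ± 45.6 in young injured cords, against 569.5 ± 43.5 in aged intact and 489 ± 72.7 in young intact cords (8.48-fold lower in aged and 4.23-fold lower in young mice). Cacng2 (stargazin), which brings AMPA receptors to the synapse, was 5.24-fold lower in aged and 5.14-fold lower in young mice. Kctd8, an auxiliary subunit of GABA-B receptors, was at least 2.65-fold and at least 2.59-fold lower, and Grip1, an AMPA receptor scaffold, at least 1.31-fold lower in aged mice.

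The few that were higher, named here after their values were seen, were Gabarap, a GABA-A receptor trafficking protein that also serves autophagy, in both ages (1.86-fold in aged and 1.67-fold in young mice), Dlgap4 in aged mice (1.26-fold) and Agrn in young mice (1.76-fold). Of the 29, only 1 gene was called between aged and young injured cords, where 4.58% of all genes were called lower and 4.41% higher. This was Dlg3, with means of 50.6 ± 3.56 in aged injured and 68.2 ± 3.81 in young injured cords (SD, n = 3 each, log2 fold change -0.43, adjusted p = 0.0187, limma).

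Receptors for other transmitters were called in both directions, the 3 higher being near the share of all genes. Of 9 tested, 6 were called lower and 3 higher after SCI in each age, where 39.9% of all genes were called lower and 35.6% higher in aged, and 34.1% and 33.9% in young mice. The median log2 fold change of the 9 in aged mice was -2.11, and -1.60 without aged injured replicate 1. Htr2c, a serotonin receptor of spinal neurons, was 6.42-fold lower in aged and 4.15-fold lower in young mice. Its aged injured arrays spread widely, with a mean of 141 ± 120 against 905 ± 46.4 in aged intact cords (SD, n = 3 each). Oprl1, the nociceptin receptor, was at least 4.61-fold lower in aged mice (39.8 ± 29.65 in aged injured and 230 ± 13.2 in aged intact cords). P2rx4, an ATP-gated channel of microglia and neurons, had means of 639 ± 129 in aged injured and 485 ± 95.1 in young injured cords, against 106 ± 10.8 in aged intact and 85.2 ± 7.28 in young intact cords (6.04-fold higher in aged and 5.70-fold higher in young mice). Htr2b, another serotonin receptor, was at least 10.3-fold higher in aged and at least 3.82-fold higher in young mice, and P2rx7, the third that was higher and named after its values were seen, at least 3.67-fold and at least 3.13-fold higher. None of the 9 was called between aged and young injured cords.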

How the data were processed

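Total RNA of Th9 spinal cord segments was labelled and hybridized to GeneChip Mouse Genome 430 2.0 arrays, 12 in all. Per the study's methods, images were converted with MAS 5.0, and the deposited values are linear signal intensities with a trimmed mean of 100 per array. Probe sequences and genome build were not given in the sources used here. GEO's platform annotation gave 1 gene for 34958 of 45101 probes, several for 932 and none for 9211, and probes of 1 gene were used (117 probes for the 59 receptor subunit genes).

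A gene's value was that of its brightest probe by mean over the 12 arrays. Genes with a mean above 50 in at least 1 group (10511 of 18194) were fitted on log2 signals with limma 3.58.1 (lmFit and eBayes with a trend, R 4.3.3), with 1 mean per group and no covariate, and p-values were adjusted by Benjamini-Hochberg over all of them. The script was tested on simulated data. The number of arrays limits the precision. A p-value weighs a difference against the spread between mice, which is pooled over the groups in the fit and moderated across genes.

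The members and gene lists were chosen with earlier results of these data known. All members above 50 are named with the value on every array, the others by range, and genes of other lists where they passed, at most 3 per list and comparison apart from the exceptions named. Windows around gene starts came from RefSeq (GRCm38.p6), the first listed per gene. Alternatives were another scaling (median, quantile), log2(signal + 16), no cutoff or a cutoff of 100, no trend, array weights, the replicate number as a block, the mean of all probes, the arrays of the compared groups alone, the study's cutoffs (a ratio above 2 and a signal above 50) and leaving out each array.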

Additional observations from a re-analysis of the deposited data

How the results depend on the processing

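The injury comparisons kept a negative median over the receptor subunits under all alternatives run. The medians by age did not: without aged injured replicate 1 the median of aged against young injured cords was 0.008 (-0.65 with it), and that of intact cords, -0.03, lay between -0.07 and 0.06 when 1 array was left out. After SCI, leaving out 1 array kept 25 called lower in aged mice, where 37.6% to 40.0% of all genes were called lower. In young mice it gave 17 to 25, where 28.9% to 37.3% of all genes were called lower. Between aged and young injured cords 0 were called, but 3 were called lower with array weights (9.51% of all genes). When 1 array was left out 0 to 12 were called lower (1.41% to 17.5% of all genes). Both were highest without aged injured replicate 2. The median of the interaction was -0.998 without that array and -0.13 without aged injured replicate 1, with no receptor subunit called in either fit. Between aged and young intact cords 2 were called higher with only those arrays (2.63% of all genes). Without a cutoff on signal 2 were called higher in young injured against young intact cords (23.4% of all genes), both under 50 in every group. With the replicate number as a block 25 were called lower in aged and 22 in young mice (39.8% and 34.1% of all genes), and none by age. No pairing is implied by the labels, and of 18 correlations between same-numbered arrays 2 were over 0.1 (-0.113 to 0.667). Both were between aged injured and young injured arrays, at 0.595 for replicate 1 and 0.667 for replicate 2. Median scaling moved the median of all genes to -0.15 in aged and -0.20 in young mice, with 25 and 23 receptor subunits called lower. It also moved the split over all genes, to 4689 lower and 3129 higher calls in aged mice (4198 and 3738 without it), 4731 and 2601 in young mice (3581 and 3568 without it), and 327 and 548 between aged and young injured cords (481 and 464 without it). The cause of these differences was not tested. Low signal limits the folds, since 11 of the 25 genes in aged and 7 in young mice had an injured mean under 50, the cutoff.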
